A study of Mus musculus with 16 samples.

Results

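The effect of losing the FoxO transcription factors in skeletal muscle was followed across both feeding states: mFoxO-TKO muscle was compared with WT muscle after averaging fed and fasted mice, and genes were then sought that were shifted the same way in fed and in fasted mice. All 16 arrays of the series entered, and 219 of 21281 genes tested were shifted in both states. The 4 groups of 4 male mice aged 8 weeks were WT fed ad libitum, WT fasted for 24 h in individual cages, and mFoxO1,3,4-/- (mFoxO-TKO) fed or fasted in the same way, all on CE-2 chow. In the knockout, Cre recombinase under the human α-actin (HSA) promoter removes Foxo1, Foxo3 and Foxo4 from skeletal muscle, so non-muscle cells of the quadriceps keep these genes. The WT mice were age-matched, and the sources used here do not say whether they were littermates or carried Cre or floxed alleles. RNA of the quadriceps was labelled with Cy3, with 1 Agilent array per sample. These sources also do not say whether a sample pooled mice, so p-values measure the spread between the arrayed samples.

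FoxO proteins are transcription factors that bind a short DNA element and are held out of the nucleus when insulin or growth factor signalling activates Akt. In skeletal muscle they are known for switching on ubiquitin ligases, autophagy genes and inhibitors of growth signalling when food is withdrawn. The fed and the fasted comparison therefore ask what their loss does when insulin signalling is high and when it is low, and averaging them asks what the loss does in either case.

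Every level below is a log2 signal relative to the 75th percentile of its array. Every difference is mFoxO-TKO minus WT on that log2 scale ± the standard error of a limma model with 4 group means, with 4 arrays per group unless stated. The averaged effect is the mean of the fed and the fasted difference, and a gene passed at a Benjamini-Hochberg adjusted p under 0.05 over all genes tested. In whole muscle, fewer cells of a type and less RNA per cell cannot be told apart. Replicates 1 and 2 of each group lay on slide 1 and replicates 3 and 4 on slide 2. Each group filled its own column of a slide, so array position and group cannot be told apart. Between 45.0% and 75.2% of spots were well above background on an array, and 0 spots were saturated. Fasted mFoxO-TKO replicate 1 stood apart: in 133 of its 1909 blocks of neighbouring spots (6.75% of spots) signals were shifted as a block, against at most 18 blocks on any other array. Leaving those blocks out gave 2632 genes for the averaged effect and 249 in both states, and leaving out the whole array gave 2437 and 240.

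Many genes differed on average between knockout and WT muscle, and far fewer passed in both feeding states. The averaged effect passed for 2459 genes (11.6% of genes tested), 1153 higher (5.42%) and 1306 lower (6.14%) in mFoxO-TKO muscle. When arrays were scaled to probes above background on all arrays, 57.2% of the passing genes were higher, against 46.9% here. At least a 2-fold averaged difference was seen for 540 of them, 314 higher and 226 lower. In fed mice alone 315 genes passed (1.48%), and in fasted mice alone 2652 (12.5%). Of the 2459 genes, 1618 passed in fasted but not in fed mice, 86 in fed but not in fasted mice, and 536 in neither state alone. The difference between the fed and the fasted effect passed for 346 of the 2459 genes, so for these the average does not describe both states equally.

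The genes that passed in both states with the same sign numbered 219 (1.03% of genes tested), 129 lower (0.606%) and 90 higher (0.423%). With slide as a block the averaged effect passed for 3590 genes and both states for 386. Within slide 1 alone, with 2 arrays per group, 972 and 59 passed, and within slide 2 alone 1083 and 29. All 208 of the 219 genes that could be fitted on slide 1, and all 216 on slide 2, kept their sign in each feeding state there. The genes were chosen on these same arrays, so a kept sign was likely from the start and is no separate check. Of the 219 genes, 45 passed again in both states within slide 1 alone and 24 within slide 2 alone. The fed and the fasted contrast use different mice. Of the 315 genes called in fed mice, 304 (96.5%) had the same sign in fasted mice and 219 (69.5%) passed there with that sign, whereas over all genes tested 60.6% had the same sign in both states. Read from the other side, 8.26% of the genes called in fasted mice were also called in fed mice with the same sign. The count in both states moved with single fed arrays: it was 121 without fed WT replicate 2, 140 without fed mFoxO-TKO replicate 2, 145 without fed WT replicate 1 and 145 without fed mFoxO-TKO replicate 3.

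The fed and fasted differences of these 219 genes were next compared in size. In 200 the smaller of them was at least 0.5 of the larger, in 156 at least 0.67, and the median of this ratio was 0.771. Passing in both states favours such genes by choice, and over all 2459 genes passing on average 1092 (44.4%) had the same ratio of at least 0.5. A ratio over 0.5 does not mean equal effects: Foxo1, with a fed difference of -1.78 and a fasted one of -3.42, is among the 200 although its 2 effects differed by the interaction term (adjusted p = 0.00803). Of the 19 genes under 0.5, 16 had the larger difference in fasted mice. In 132 of the 219 genes the 8 mFoxO-TKO and the 8 WT arrays did not overlap whatever the feeding state, against 296 genes (1.39%) over all genes tested. Of the 132, 52 were higher and 80 lower, against 126 (0.592%) and 170 (0.799%) over all genes tested. The 219 genes were chosen for genotype differences on these same arrays, so a larger share without overlap was likely from the start and is no separate result. At least a 2-fold difference in both states was present in 119. The median WT level was 1.59 for the lower and -2.65 for the higher genes, and the median mFoxO-TKO level 0.13 and -0.99. The median level of all genes tested was 0.10. Sorting by the difference from WT itself widens the gap in WT levels. The probe filter also admits genes dim in WT through the knockout arrays where they are high. With signal above background required on all 16 arrays, 54 genes were higher and 118 lower in both states.

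**Figure D1:**
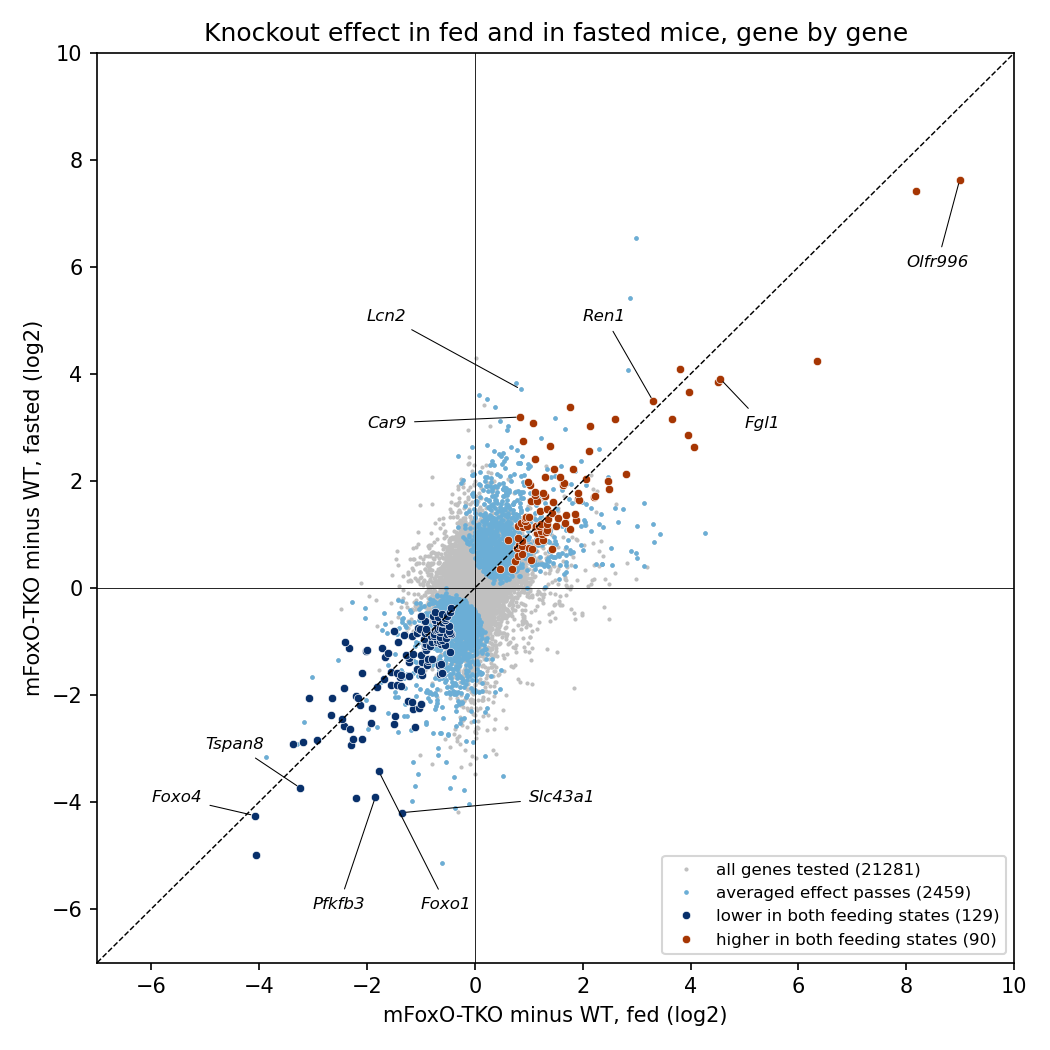
Knockout effect in fed mice (horizontal axis, log2) against the effect in fasted mice (vertical axis, log2) for each of the 21281 genes tested. Dark blue and brown points mark the 129 genes lower and the 90 genes higher in both states, light blue points the other genes that passed on average, and the dashed line equal effects; Slc43a1, Pfkfb3 and Foxo1 lie below the line because their fasted difference was larger in size.

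Of the knocked-out genes, Foxo1 and Foxo4 were lower in mFoxO-TKO muscle in both feeding states and the Foxo3 probe gave no averaged difference beyond its error. Foxo1 levels were 2.69, 2.86, 2.43 and 2.80 in fed WT, 5.56, 4.99, 4.73 and 4.70 in fasted WT, 1.0, 0.83, 1.40 and 0.42 in fed mFoxO-TKO and 1.55, 1.53, 1.53 and 1.66 in fasted mFoxO-TKO muscle. No mFoxO-TKO array reached a WT array. The averaged Foxo1 difference was -2.60 ± 0.15 (adjusted p = 4.99e-08), made of -1.78 ± 0.21 fed and -3.42 ± 0.21 fasted, and another Foxo1 probe gave -2.10. Foxo4 levels lay between -2.43 and -2.07 on the 8 WT arrays and between -7.15 and -5.76 on the 8 mFoxO-TKO arrays, none of which was well above background. Among fed mice Foxo4 was thus at least 6.87-fold lower, and among fasted mice at least 6.25-fold. Such a bound compares the mean of the brighter group with the floor of each array in the dimmer group, the floor being the dimmest signal still well above background or the probe's own signal if that was higher. It holds for the signal as processed here, and other background corrections can give smaller differences. Foxo3 levels ran from -4.69 to -4.15 in fed WT, -3.08 to -1.69 in fasted WT, -3.90 to -3.42 in fed mFoxO-TKO and -3.63 to -2.53 in fasted mFoxO-TKO muscle, dim in every group. Its averaged difference was -0.03 ± 0.19 (adjusted p = 0.94), with opposite signs in the fed (0.71) and the fasted state (-0.78). The sources used here do not place these probes within or outside the deleted exons, and a probe outside them would not test the deletion. Foxo6, the family member that was not targeted, was higher by 0.72 ± 0.13 on average (adjusted p = 0.00233). Its fasted difference of 0.94 passed and its fed difference of 0.50 did not, and over the mean of its probes the averaged value was 0.47 and did not pass.

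Beyond the targeted genes, the largest losses common to both states included Tspan8, Kcnab1, Pik3ip1 and Pfkfb3. The largest losses and gains were named only among genes whose genotypes did not overlap within a state. That separation was therefore set by the choice of genes. Tspan8, a tetraspanin membrane protein, was at 3.12, 3.15, 2.92 and 3.07 in fed WT and 3.19, 3.53, 3.54 and 3.49 in fasted WT muscle. In mFoxO-TKO muscle it was at -0.08, 0.20, -0.30 and -0.50 fed and -0.19, -0.06, -0.21 and -0.74 fasted. All 8 knockout arrays lay far below all 8 WT arrays, and within WT the fasted arrays lay slightly above the fed ones. The averaged Tspan8 difference was -3.49 ± 0.12 (11.2-fold, adjusted p = 2.27e-10). Kcnab1, a β subunit of voltage-gated potassium channels, was at 1.30, 1.82, 0.92 and 0.83 in fed WT, 1.82, 1.58, 0.86 and 0.79 in fasted WT, -2.20, -1.87, -1.92 and -1.91 in fed mFoxO-TKO and -1.08, -1.66, -1.95 and -1.75 in fasted mFoxO-TKO muscle. Its difference was nearly the same fed (-3.19 ± 0.26) and fasted (-2.87 ± 0.26), with no overlap between genotypes. The difference between these 2 state effects, 0.32, had a 95% interval from -0.48 to 1.12.

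Pik3ip1, an inhibitor of PI3-kinase, was lower by 2.30 fed and 2.93 fasted. Its WT levels were 3.52, 3.47, 3.39 and 3.14 fed and 4.56, 4.49, 4.53 and 4.03 fasted, and its mFoxO-TKO levels 1.20, 1.35, 1.02 and 0.75 fed and 1.85, 1.14, 1.66 and 1.23 fasted. The genotypes were separated by more than their spread on both slides (averaged -2.62 ± 0.13, -2.63 and -2.61 within slides 1 and 2). Pfkfb3, which makes the sugar phosphate that activates glycolysis, was lower by 1.84 ± 0.18 fed and 3.91 ± 0.18 fasted. Fed WT arrays were at 4.61, 5.11, 5.55 and 4.97, fasted WT at 6.22, 5.82, 6.40 and 6.20, fed mFoxO-TKO at 3.36, 3.10, 3.23 and 3.17 and fasted mFoxO-TKO at 2.40, 2.06, 2.10 and 2.47. The Pfkfb3 level was thus higher in fasted than in fed WT arrays and lower in fasted than in fed knockout arrays, without overlap in either genotype. A dimmer Pfkfb3 probe gave an averaged -3.17.

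The remaining 6 of the 12 largest losses with an ordinary gene symbol were Ctxn3 (a small membrane protein), Slc43a1 (a transporter of large neutral amino acids), Htra4 (a secreted serine protease), Slc23a3 (a member of the nucleobase and ascorbate transporter family), Dnase1 (a DNA-cutting enzyme) and Abca4 (a lipid flippase of the retina). Their averaged differences were -3.07 ± 0.22, -2.77 ± 0.18, -2.57 ± 0.23, -2.54 ± 0.13, -2.50 ± 0.36 and -2.47 ± 0.24, with adjusted p of at most 0.000349. Slc43a1 and Dnase1 were the 2 among them whose 8 knockout and 8 WT arrays overlapped when the feeding states were pooled. Within a state the naming rule allowed no overlap. Abca4 and Dnase1 were dim, with 1 of 4 mFoxO-TKO arrays well above background in each state.

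**Figure D2:**
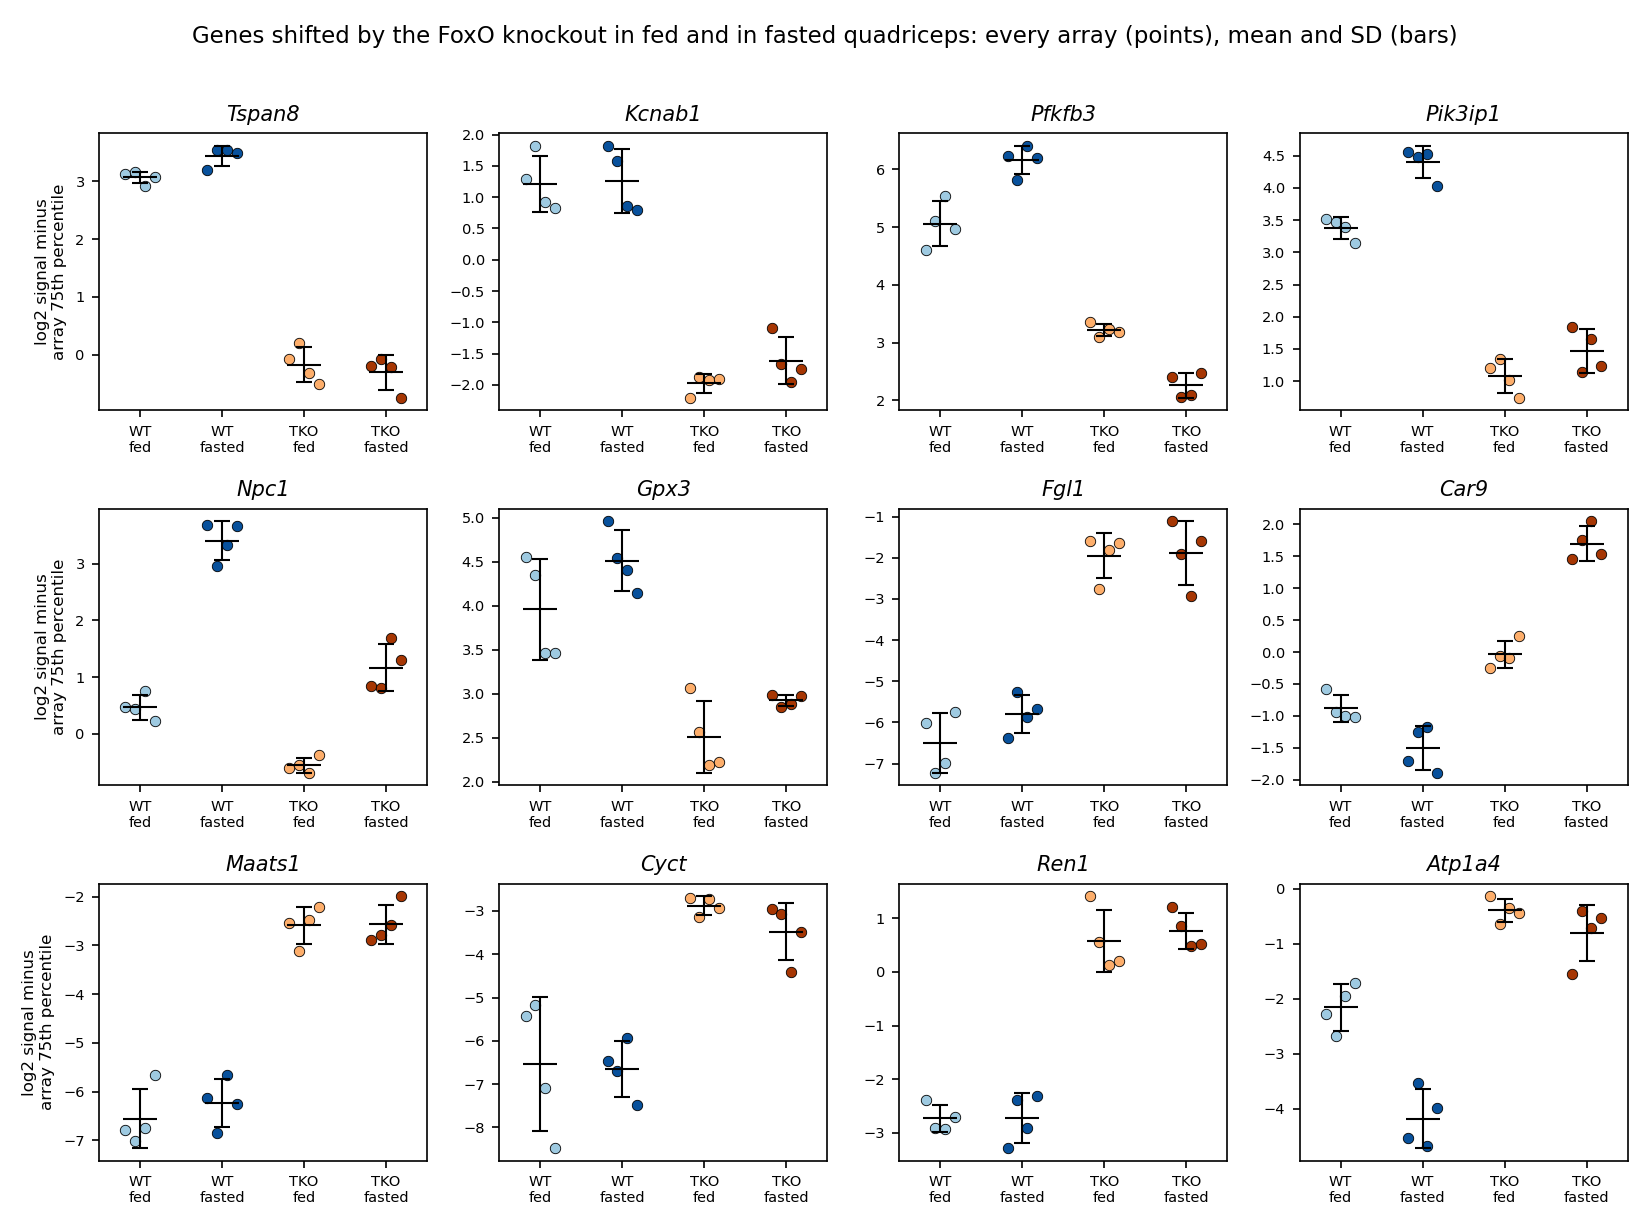
Level of 12 genes on every array (points; log2 signal minus the 75th percentile of the array), with the mean and SD of each group of 4. In each panel the mFoxO-TKO arrays of a feeding state lie wholly on one side of the WT arrays of that state. The rule that named the drawn genes required this, except for Npc1, Gpx3 and Car9. Npc1 passed for the averaged fasting effect as well, which Tspan8 and Kcnab1 did not.

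The largest gains were in genes that are dim or undetected in WT quadriceps. Olfr996 and Olfr1000, odorant receptor genes, were not well above background on any WT array. Olfr996 levels were 2.67, 1.53, 1.56 and 1.58 in fed and -0.56, 1.17, 1.25 and 1.49 in fasted mFoxO-TKO muscle, against -7.90 to -5.90 over the 8 WT arrays. It was at least 131-fold higher in fed and at least 52.6-fold higher in fasted mice, and the low value of -0.56 lay in a block of shifted spots on fasted mFoxO-TKO replicate 1 (averaged difference 8.54 without those blocks, 8.31 with them). Olfr1000 was at least 66.6-fold higher in fed (3 arrays in the mFoxO-TKO group) and at least 48.7-fold higher in fasted mice. Olfr998, Olfr983 and Olfr437 also passed in both states, but few WT arrays measured them. Olfr983 was not well above background on any WT array and was at least 3.73-fold higher in fed and at least 2.19-fold higher in fasted mice (3 arrays in the fasted mFoxO-TKO group). Olfr998 was well above background on 0 of 4 fed and 1 of 4 fasted WT arrays and was at least 22.2-fold higher in fed mice, and Olfr437 was on 1 of 4 WT arrays in each state. The fitted averages of 5.29, 3.41 and 3.36 for Olfr998, Olfr983 and Olfr437 therefore rest on WT signals mostly at background. Odorant receptors are similar in sequence, and how far 1 transcript could light several of these probes was not tested.

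Ren1, which encodes renin, the enzyme that starts the angiotensin cascade, was measured on all 16 arrays. It was at -2.38, -2.91, -2.92 and -2.71 in fed WT and -3.28, -2.39, -2.92 and -2.31 in fasted WT muscle, and at 1.41, 0.55, 0.13 and 0.21 in fed and 1.20, 0.85, 0.49 and 0.53 in fasted mFoxO-TKO muscle. The genotypes were clear of each other, while the averaged fasting effect on Ren1 did not pass (0.10, adjusted p = 0.756). The Ren1 difference was 3.31 ± 0.28 fed and 3.49 ± 0.28 fasted (averaged 3.40 ± 0.20, 10.6-fold, adjusted p = 7.98e-08), with a state difference of 0.19 (95% interval -0.67 to 1.04). Fgl1, a fibrinogen-like protein secreted by liver, lay between -7.22 and -5.26 on WT arrays, where 1 of 8 was well above background, and between -2.93 and -1.11 on mFoxO-TKO arrays, an averaged difference of 4.23 ± 0.29. In fasted mice, where no WT array was above background, Fgl1 was at least 7.97-fold higher.

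Maats1 (a protein of cilia and flagella), Cyct (the testis form of cytochrome c), Adad2 (a testis RNA-binding protein) and Atp1a4 (a sodium pump subunit of sperm) were also among the 12 largest gains. Their averaged differences were 3.82 ± 0.22, 3.41 ± 0.41, 2.58 ± 0.33 and 2.57 ± 0.21, with adjusted p of at most 0.000127. Cyct was not well above background on any WT array, so that only a bound for the signal as processed here is given: at least 5.01-fold higher in fed and at least 2.64-fold higher in fasted mice. Maats1 was well above background on 1 of 4 fed and 0 of 4 fasted WT arrays and was at least 4.98-fold higher in fasted mice. Atp1a4 was at -2.28, -2.69, -1.95 and -1.71 in fed WT and -4.54, -3.53, -4.68 and -3.98 in fasted WT muscle, against -0.14, -0.64, -0.35 and -0.45 fed and -1.55, -0.41, -0.72 and -0.53 fasted in mFoxO-TKO muscle. Its fasted WT arrays, 2 of 4 well above background, lay below the fed ones, and the genotype gap was 1.76 fed and 3.38 fasted, a state difference that did not pass (adjusted p = 0.0567). The size of these differences depends on how background is handled: with normexp correction and an offset of 50, 12 of 23 of the largest gains and losses shrank by more than 1.5 times on the log2 scale. Fgl1 then stood at 1.80, Olfr996 at 4.63, Abca4 at -0.91 and Foxo4 at -1.40. For Fgl1, Olfr996 and Foxo4 these values lie below the at-least folds given above, which therefore hold only for the signal as processed here. All 23 still passed the averaged effect, whereas only 114 of the 219 genes stayed called in both states.

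**Figure D3:**
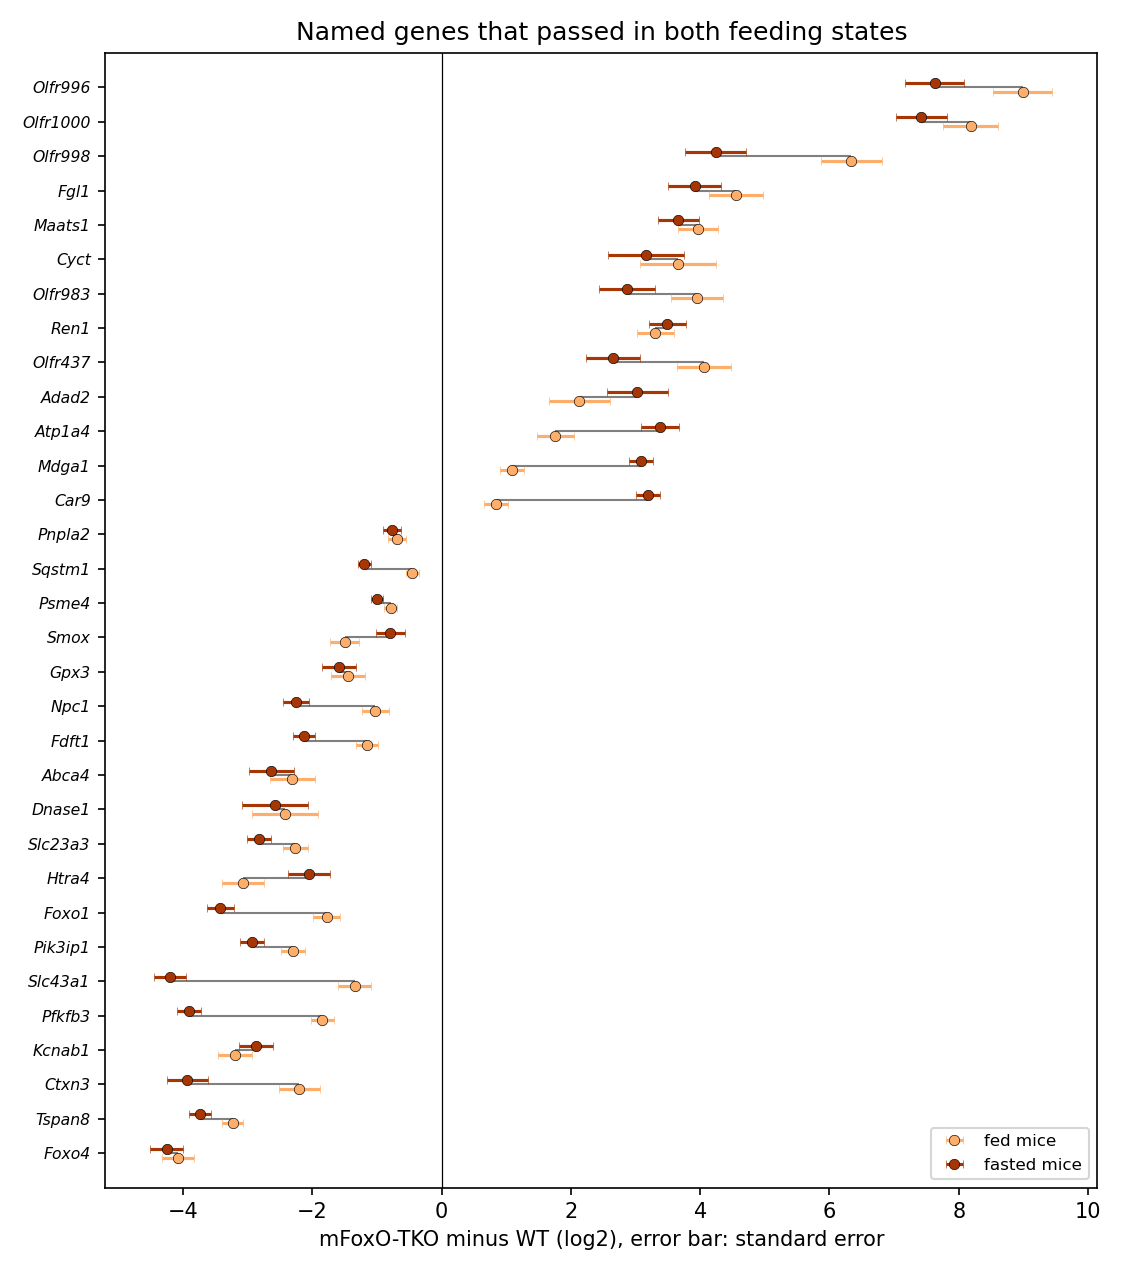
Fed (light) and fasted (dark) knockout effects, log2, with the standard error of the model, for the 32 named genes that passed in both feeding states, ordered by their averaged effect. Ren1, Pnpla2 and Gpx3 have points within an error bar of each other, whereas Slc43a1, Pfkfb3, Mdga1 and Car9 have widely separated ones.

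In 47 of the 219 genes another probe of the same gene was kept. Of these 55 further probes, 54 had the same sign as the probe used and 40 also passed, and none passed with the opposite sign. Of the 219 genes, 99 were called in both states whichever single array was left out (56 lower, 43 higher), and all 219 kept the sign of their averaged effect under every alternative that fitted each feeding state and in which they could be fitted. Those alternatives reuse the arrays that chose the genes, so a kept sign is no separate check.

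Promoter sequence was examined because FoxO proteins bind the element GTAAACA. That motif was searched on both strands (reading GTAAACA or TGTTTAC) in RefSeq promoters of build GRCm38.p6, from 250 bases before to 50 bases after each gene's start. A promoter was in the table for 11241 of the genes tested, and 357 of these (3.18%) held the motif. Among genes lower in both states it was held by 9 of 70 with a promoter (12.9%), and among genes higher in both states by 1 of 60 (1.67%). Among all genes lower on average it was held by 56 of 758 (7.39%), and among those higher on average by 17 of 720 (2.36%). These are shares of genes without a test, and a match describes letters, not binding. The 9 lower genes were Tspan8, Pnpla7, Ypel3, Plekhb1, Aldoc, Egf, Zfp874b, Gm23952 and 9330159F19Rik, and the higher one was Zscan18; all but Tspan8 are named here because of the match, after their values were seen. In Tspan8 the motif began 18 bases before the start, and in Aldoc, a glycolytic aldolase, 148 bases before it. In Pnpla7, a lysophospholipase, and Ypel3, a member of the yippee family, it began 35 and 25 bases after the start. The promoters of these 4 genes are shown 5′ to 3′ on the gene's strand, with the motif in capitals, from chr10:115817034-115817333 (plus strand), chr11:78323948-78324247 (plus), chr2:24975783-24976082 (plus) and chr7:126776713-126777012 (plus).
Tspan8: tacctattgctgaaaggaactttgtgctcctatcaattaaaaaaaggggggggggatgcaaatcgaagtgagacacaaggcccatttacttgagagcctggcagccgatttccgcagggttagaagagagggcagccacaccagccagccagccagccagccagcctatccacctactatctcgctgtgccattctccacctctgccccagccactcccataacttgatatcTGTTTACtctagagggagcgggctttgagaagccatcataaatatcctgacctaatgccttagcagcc
Aldoc: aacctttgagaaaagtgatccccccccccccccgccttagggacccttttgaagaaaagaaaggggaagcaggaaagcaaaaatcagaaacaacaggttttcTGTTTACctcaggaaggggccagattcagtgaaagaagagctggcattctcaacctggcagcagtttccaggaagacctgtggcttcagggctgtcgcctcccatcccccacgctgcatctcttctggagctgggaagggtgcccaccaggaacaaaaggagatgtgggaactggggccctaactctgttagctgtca
Pnpla7: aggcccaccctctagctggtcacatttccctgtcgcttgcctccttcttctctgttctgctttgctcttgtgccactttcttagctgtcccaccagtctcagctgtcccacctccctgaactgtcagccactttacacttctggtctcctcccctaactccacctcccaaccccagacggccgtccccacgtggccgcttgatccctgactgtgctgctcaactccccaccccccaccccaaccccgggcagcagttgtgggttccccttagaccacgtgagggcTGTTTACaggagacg
Ypel3: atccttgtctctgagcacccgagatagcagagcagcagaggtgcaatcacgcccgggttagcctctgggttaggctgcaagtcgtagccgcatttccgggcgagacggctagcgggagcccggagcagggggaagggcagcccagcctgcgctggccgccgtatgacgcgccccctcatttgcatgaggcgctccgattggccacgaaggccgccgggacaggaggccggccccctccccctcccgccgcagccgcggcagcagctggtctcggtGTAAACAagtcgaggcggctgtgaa
Set beside these sequences, Aldoc was lower by 0.90 fed and 0.84 fasted, Pnpla7 by 1.11 and 2.61, and Ypel3 by 0.98 and 1.62, each with an averaged adjusted p of at most 6.88e-05. Egf, whose motif began 175 bases before the start, was lower by 0.93 fed and 0.62 fasted.

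Some of the 219 genes lie close to each other on the chromosome. Among the 171 with a place in the RefSeq gene order, 24 fell in 11 runs of genes at most 2 places apart, and in 9 runs the members moved the same way. The 171 were 1.21% of the tested genes with a place. How many such runs, or runs of 1 direction, would arise among randomly placed genes was not tested. The 3 odorant receptor genes Olfr996, Olfr998 and Olfr1000 formed one run, all higher, and 2310081J21Rik, Gm904 and Gm23952 another, all lower (averaged -4.52, -3.14 and -2.88). Ctxn3 and Ccdc192 (-3.07 and -2.45), Lrrc2 and Ccrl2 (-1.49 and -1.69) and the amylase genes Amy2a5 and Amy1 (-1.62 and -1.60) were lower as pairs, and the amylases are near-identical copies whose probes may not tell them apart. Gm2447, close to Foxo1, was higher by 3.81 fed and 4.10 fasted while Foxo1 was lower. Of the 20 tested neighbours of Foxo1, 10 on each side, 5 passed on average (1 higher, 4 lower), where 11.6% of all genes tested passed. For Foxo3 7 of 20 passed (6 higher, 1 lower) and for Foxo4 3 of 20 (3 higher, 0 lower). In both states 2, 0 and 0 of the neighbours of Foxo1, Foxo3 and Foxo4 passed. Sesn1 was the lower one among the passing neighbours of Foxo3. These runs were chosen after the values were seen.

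Textbook FoxO targets were mostly lower on average, where 6.14% of all genes tested were lower and 5.42% higher. None of the 34 passed in both states, which is near the 1.03% of all genes tested that did. Of 34 textbook FoxO targets 20 were lower and 1, Cdkn1a, higher by the averaged effect, with a median of -0.63 against -0.00 for all genes tested. Blocking on slide left this median at -0.63, and slides 1 and 2 on their own gave -0.65 and -0.50. By limma no member of that list passed in fed and fasted mice alike, against 11 at an unadjusted p under 0.05 with the same sign in both. Over all genes tested, 2446 had an unadjusted p under 0.05 by limma in fed and 5209 in fasted mice. How many had it in both states was not counted. In fed mice 30 of the 34 were below 0, and in fasted mice 29 (medians -0.31 and -0.76). Depp1, which modulates autophagy, was lower by 2.24 ± 0.27 on average, but its fed levels of 1.41, 1.27, 2.30 and 1.36 in WT and 0.82, 0.01, 2.35 and 1.68 in mFoxO-TKO muscle overlapped. Its fasted levels of 7.38, 6.90, 6.85 and 6.84 in WT and 2.92, 2.53, 2.97 and 3.08 in mFoxO-TKO muscle did not. Sesn1, a stress-induced inhibitor of mTORC1, Fbxo32, the ubiquitin ligase atrogin-1, and Eif4ebp1, a brake on translation, had averaged differences of -1.62, -1.46 and -1.39, with fed differences of -0.50, -0.72 and -0.89 that did not pass.

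**Figure D4:**
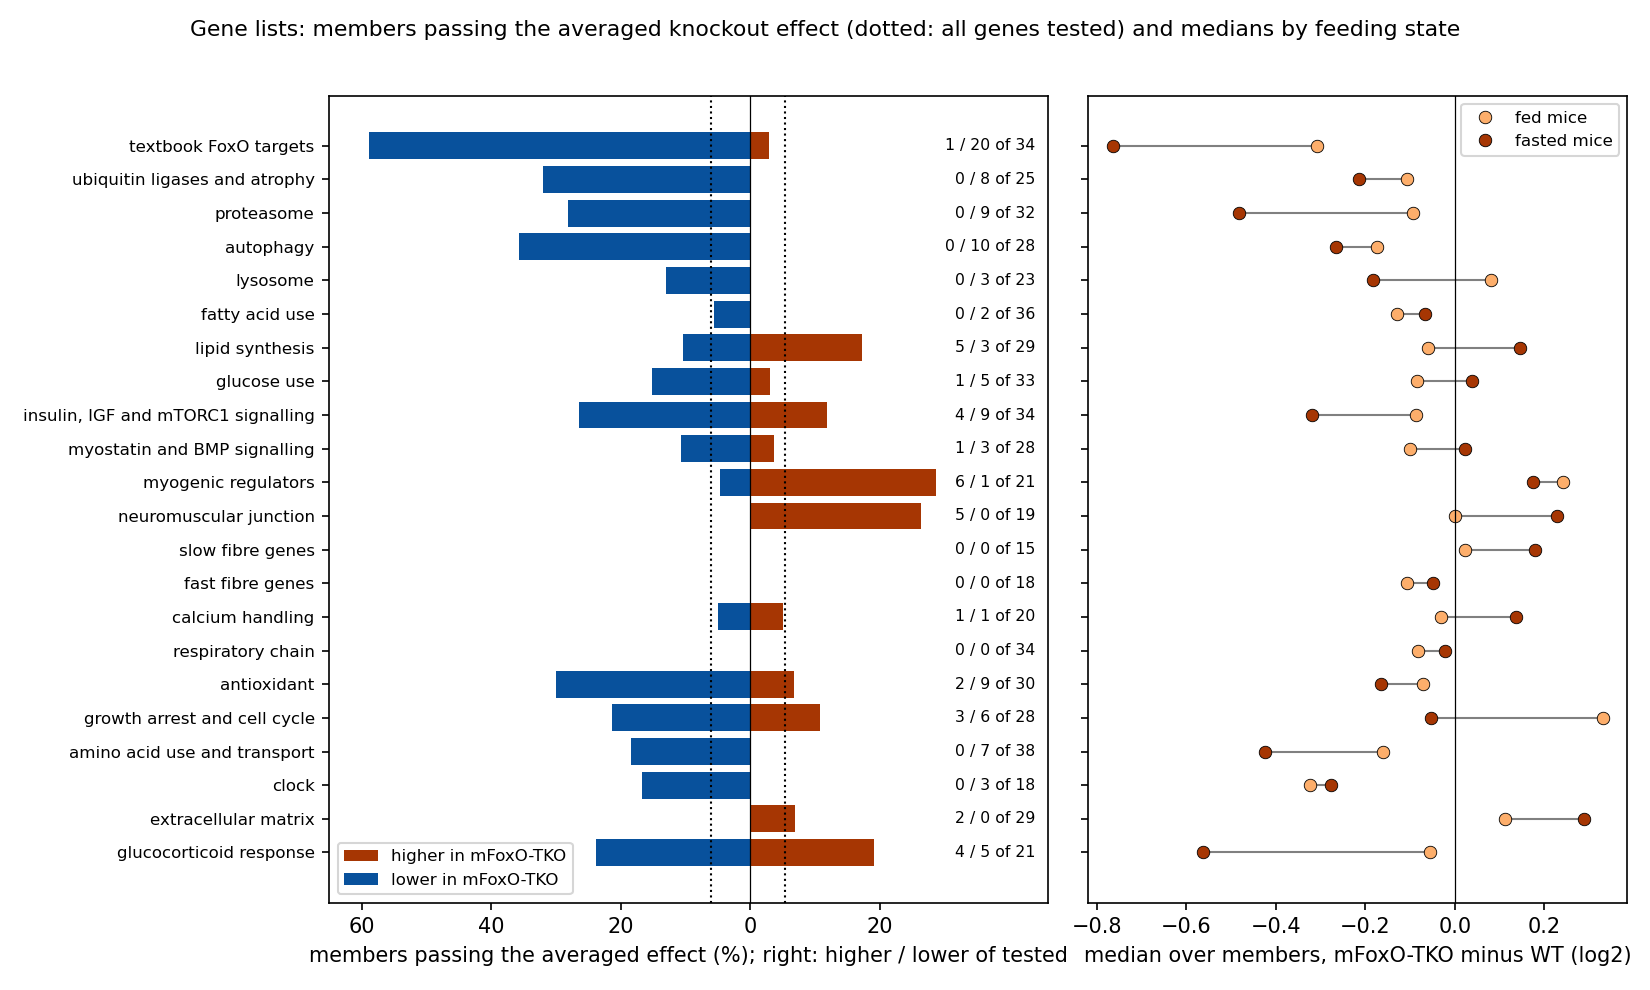
Gene lists by share of members passing the averaged effect (left; brown bars higher, blue bars lower in mFoxO-TKO, counts at the right edge, dotted lines the shares over all genes tested) and by the median fed and fasted knockout effect (right, log2). Shares of lower genes exceed the dotted line most for textbook FoxO targets, autophagy, ligase, antioxidant and proteasome genes. They also exceed it for insulin, glucocorticoid, growth arrest, amino acid, clock, glucose, lysosome, myostatin and lipid synthesis genes. Shares of higher genes exceed it most for myogenic and neuromuscular junction genes. Glucocorticoid, lipid synthesis, insulin, growth arrest, extracellular matrix and antioxidant genes exceed it too. The glucocorticoid list includes the knocked-out genes Foxo1 and Foxo3, and Foxo1 counts among its lower genes.

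Within protein breakdown, single members were shifted in both states. The averaged effect passed as lower for 6.14% and as higher for 5.42% of all genes tested. Of 25 ubiquitin ligases and atrophy genes 8 were lower and none higher (median -0.15, and -0.23 and -0.19 within slides). By limma none passed in both states, near the 1.03% of all genes tested that did, and 4 had an unadjusted p under 0.05 in both. That unadjusted share was not counted over all genes tested, so the 4 cannot be judged against it. Klhl38, a muscle adaptor of cullin ligases, and the ligases Trim63 and Fbxo30 were lower by 1.41, 1.01 and 0.68 on average. Of 32 proteasome genes 9 were lower and none higher (median -0.29, and -0.29 and -0.24 within slides), and Psme4, the activator PA200 of the proteasome, was the member lower in both states. Psme4 was at 4.13, 4.03, 4.16 and 4.28 in fed WT, 4.58, 4.57, 4.32 and 4.37 in fasted WT, 3.46, 3.24, 3.42 and 3.31 in fed mFoxO-TKO and 3.48, 3.45, 3.47 and 3.43 in fasted mFoxO-TKO muscle. The knockout arrays were tightly grouped and below every WT array (-0.79 ± 0.10 fed, -1.0 ± 0.10 fasted). The core and cap subunits Psmd8, Psmd11 and Psmb2 were lower on average by 0.48, 0.44 and 0.40, with fed differences that did not pass.

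Of 28 autophagy genes 10 were lower and none higher (median -0.24, and -0.21 and -0.25 within slides), against 6.14% and 5.42% of all genes tested. Sqstm1, the cargo receptor p62, was the member lower in both states. Its levels were 4.35, 4.17, 4.33 and 4.12 in fed WT, 5.41, 5.54, 5.50 and 5.48 in fasted WT, 3.84, 3.83, 3.72 and 3.79 in fed mFoxO-TKO and 4.45, 4.32 and 4.09 in fasted mFoxO-TKO muscle, where 1 array was left out. Within each state the genotypes did not overlap, and the difference was -0.45 ± 0.10 fed (adjusted p = 0.0401) and -1.19 ± 0.11 fasted. Gabarapl1, an autophagosome protein, and Ulk1, the kinase that starts autophagy, were lower on average by 1.16 and 1.15, with fed differences of -0.34 and -0.37 that did not pass.

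The lysosome, fatty acid and lipid synthesis lists each had 1 member lower in both states (Npc1, Pnpla2 and Fdft1), against 0.606% of all genes tested. Of 23 lysosome genes 3 were lower and none higher (median -0.12, and -0.12 and -0.15 within slides), or 5 lower with slide as a block. Npc1, which exports cholesterol from lysosomes, was at 0.46, 0.43, 0.75 and 0.22 in fed and 3.70, 2.96, 3.33 and 3.66 in fasted WT muscle, and at -0.62, -0.56, -0.69 and -0.38 in fed and 0.84, 0.81, 1.69 and 1.30 in fasted mFoxO-TKO muscle. It was lower by 1.02 ± 0.20 fed and 2.25 ± 0.20 fasted, and in both genotypes the fasted arrays lay above the fed ones. The protease Ctsl and the proton pump subunit Atp6v1h were lower on average by 0.80 and 0.42 but not in fed mice, and the Atp6v1h call was lost when any of 10 single arrays was left out. Of 36 fatty acid genes 2 were lower, a share no larger than the 6.14% of all genes tested, Acot2 (an acyl-CoA thioesterase, -0.77) and Pnpla2 (the lipase ATGL, -0.73). Pnpla2 was lower by 0.68 ± 0.14 fed and 0.77 ± 0.14 fasted, with WT levels of 5.31 to 5.64 fed and 6.33 to 6.71 fasted and mFoxO-TKO levels of 4.50 to 5.06 fed and 5.54 to 5.97 fasted.

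Of 29 lipid synthesis genes 5 were higher and 3 lower, or 3 higher and 3 lower without fasted mFoxO-TKO replicate 1. The shares over all genes tested were 5.42% higher and 6.14% lower. Fdft1, the squalene synthase of the cholesterol pathway, was lower in both states (-1.16 ± 0.17 fed, -2.13 ± 0.17 fasted; a dim second probe gave -0.85 and did not pass). Its fed levels were 2.78, 2.46, 2.55 and 2.26 in WT and 1.67, 1.48, 1.15 and 1.11 in mFoxO-TKO muscle, with no overlap. The desaturase Scd2 and the lipase Pnpla3 were higher on average by 0.74 and 0.85. For Pnpla3 the fed difference was -0.26 and the fasted difference 1.96, the call was lost when any of 12 single arrays was left out, and a dimmer probe gave 0.46 and did not pass.

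Among 33 glucose genes 5 were lower and 1 higher, or 6 and 4 with slide as a block (4 higher with quantile normalization too), and the median of -0.03 turned to 0.03 under quantile normalization. Besides Pfkfb3, the other bifunctional enzyme gene Pfkfb1 and the pyruvate dehydrogenase phosphatase Pdp2 were lower on average by 0.60 and 0.79, and the glucose transporter Slc2a3 was higher by 1.20. Of 34 insulin, IGF and mTORC1 genes 9 were lower and 4 higher (median -0.21, and -0.21 and -0.17 within slides). For each list of this paragraph the shares to compare are 6.14% lower and 5.42% higher over all genes tested. Deptor, an inhibitor of mTOR named here after its values were seen, was lower in both states (-0.69 fed, -0.54 fasted), and Grb14, an adaptor that restrains the insulin receptor, was higher on average by 1.08. Ddit4, another mTORC1 inhibitor, was lower by 0.99 on average, a call lost when any of 11 single arrays was left out. Of 28 myostatin and BMP genes 3 were lower (the receptors Acvr1b and Acvr2b and the effector Smad4, -0.85, -0.72 and -0.34) and Smad3 was higher by 0.73, with a fed difference of -0.01.

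The amino acid and the antioxidant list held 3 of 38 and 2 of 30 members lower in both states, against 0.606% of all genes tested. By the averaged effect 6.14% of all genes tested were lower and 5.42% higher. Of 38 genes of amino acid use and transport 7 were lower and none higher (median -0.20, and -0.28 and -0.20 within slides), or 12 and 2 with slide as a block, and 11 lower with quantile normalization. In both states the lower ones were Slc43a1, Smox (spermine oxidase, -1.50 ± 0.23 fed, -0.80 ± 0.23 fasted) and Gpt2 (a mitochondrial alanine aminotransferase, -0.74 fed, -0.60 fasted, named after its values were seen). The glutathione-degrading enzyme Chac1 and the polyamine enzyme Odc1 were lower on average by 2.57 and 1.51 without passing in fed mice. Of 30 antioxidant genes 9 were lower and 2 higher (median -0.10, and -0.02 and -0.14 within slides). Gpx3, the extracellular glutathione peroxidase, was at 4.56, 4.35, 3.46 and 3.47 in fed WT, 4.96, 4.55, 4.41 and 4.14 in fasted WT, 3.07, 2.56, 2.19 and 2.22 in fed mFoxO-TKO and 2.98, 2.85, 2.89 and 2.98 in fasted mFoxO-TKO muscle. The loss was of equal size within error, -1.45 ± 0.26 fed and -1.59 ± 0.26 fasted, with a state difference of -0.14 (95% interval -0.94 to 0.65). Gstm1, a glutathione transferase named after its values were seen, was lower by 0.47 fed and 0.71 fasted. Gclm, a subunit of the glutathione-making ligase, was lower by 1.67 on average, or by 1.30 without fasted mFoxO-TKO replicate 1, whose Gclm spot lay in a shifted block. Mt2, a metallothionein, was higher by 1.63 on average, and the antioxidant regulator Nfe2l2 was lower by 0.74.

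Of 28 genes of growth arrest and the cell cycle 6 were lower and 3 higher (median 0.06, and -0.10 and -0.06 within slides): Gadd45a and Gadd45g, stress-induced growth arrest genes, and Rbl2, a pocket protein, were lower by 1.25, 1.12 and 1.12, and the kinase Plk2 was higher by 1.05. Of 18 clock genes 3 were lower (median -0.29, and -0.21 and -0.26 within slides). For each list of this paragraph the shares to compare are 6.14% lower and 5.42% higher over all genes tested. Cry2, a clock repressor, was lower on average by 1.08, and the call for Rora rested on its brighter probe (-0.56, and -0.15 over the mean of its probes). Of 21 glucocorticoid response genes 5 were lower and 4 higher, among them Klf15, a transcription factor of amino acid breakdown, lower by 1.16. That list also holds the knocked-out genes Foxo1 and Foxo3, and Foxo1 is among the lower ones, a call that the knockout itself set.

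Several genes of muscle formation and the neuromuscular junction were higher on average, where 5.42% of all genes tested were higher and 6.14% lower. By limma none passed in both states, near the 1.03% of all genes tested that did. In each of these lists 2 had an unadjusted p under 0.05 in both states, a share not counted over all genes tested. Of 21 myogenic regulators 6 were higher and 1 lower (median 0.53, and 0.81 and 0.24 within slides 1 and 2), and of 19 junction genes 5 were higher and none lower (median 0.14, and 0.20 and 0.15 within slides). Embryonic myosin Myh3 was at 0.03, -0.02, 0.09 and 0.13 in fed WT, 0.71, -0.38, -0.24 and 0.25 in fasted WT, 5.99, 5.69, 5.27 and 0.36 in fed mFoxO-TKO and 0.74, 1.33, 0.69 and 1.71 in fasted mFoxO-TKO muscle. Of the 4 fed knockout arrays 3 were far above WT, and replicate 4 was close to it. The averaged Myh3 difference was 2.65 ± 0.63 (adjusted p = 0.0121), and 3.31 without that array. Within slides 1 and 2 it was 3.35 and 1.95, and the latter did not pass. The fusion factor Mymk, the growth factor Igf2, the acetylcholine receptor subunits Chrna1, Chrng and Chrnd and the metallothionein Mt2 were likewise lowest on replicate 4 among the fed mFoxO-TKO arrays. Their averaged differences were 1.40, 0.96, 1.04, 0.96, 0.82 and 1.63 with all arrays, and within slide 2, which held replicate 4, Mymk, Igf2, Chrna1, Chrng and Chrnd stood at 0.67, 0.58, 0.58, 0.53 and 0.49 and Mt2 at 1.05, none of them passing. Calls for Mymk and Chrng were lost when any of 10 and 8 single arrays was left out. Myod1, the myogenic master regulator, had the other pattern: 2.13, 1.23, 0.83 and 1.41 in fed WT, -2.86, -0.49, -1.77 and -1.33 in fasted WT, 2.15, 1.76, 1.51 and 1.66 in fed and 2.60, 1.40, 1.45 and 1.65 in fasted mFoxO-TKO muscle, with a gap of 0.37 fed, which did not pass, and 3.39 fasted. Ache, the acetylcholinesterase of the junction, was higher on average by 0.80. The genes set beside Myh3 for replicate 4 were picked by hand, with Mt2 from another list. Among fed mFoxO-TKO arrays Myod1 was lowest on replicate 3 and Ache on replicate 1.

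Markers of other cells were read beside these groups, with 5.42% of all genes tested higher on average and 6.14% lower. Satellite cell markers had 1 of 6 tested members higher (Cdh15, 0.63) and a summed log2 level of 2.93 to 3.07 in fed WT, 2.81 to 3.20 in fasted WT, 3.08 to 3.71 in fed mFoxO-TKO and 2.19 to 3.52 in fasted mFoxO-TKO muscle. Macrophage markers had 1 of 7 higher (Mrc1, 0.69) with a median of 0.64, and 4 of 7 higher with slide as a block or a replicate block. By limma 5 of the 7 had an unadjusted p under 0.05, and within slides 1 and 2 alone the medians were 0.94 and 0.33, with 3 and 0 members passing. They had a summed level of 3.72 to 4.49 and 3.53 to 3.89 in fed and fasted WT and 4.24 to 5.29 and 3.49 to 4.66 in fed and fasted mFoxO-TKO muscle. Tendon markers had 1 of 6 higher, the transcription factor Scx by 2.02, with summed levels of 5.28 to 6.49 in WT and 5.90 to 6.65 in mFoxO-TKO muscle. The part of these cells in the results was not tested. In the other 8 marker lists none of 59 members passed by limma, and 2 had an unadjusted p under 0.05. The share of all genes tested with an unadjusted p under 0.05 by limma for the averaged effect was not counted. Of T and B cell markers 4 were tested. As for muscle itself, the 12 myofibre markers, well above background on all 16 arrays, had summed levels of 11.59 to 12.05 in WT and 11.44 to 12.03 in mFoxO-TKO muscle.

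Contractile and mitochondrial genes gave no calls by limma: none of 15 slow fibre genes, 18 fast fibre genes and 34 respiratory chain genes passed, with medians of 0.08, -0.08 and -0.04, and 3 of each list had an unadjusted p under 0.05. The unadjusted share over all genes tested was not counted. Quantile normalization called 2 slow and 2 fast fibre genes, all higher, and slide as a block called 1 fast fibre gene. Of 20 calcium handling genes Sypl2, a triad junction protein, was higher by 0.82 (0.38 by a second probe, which passed on average, with a fed difference of -0.09) and the calcium channel Itpr1 lower by 0.68, shares near those of all genes tested. Of 29 extracellular matrix genes 2 were higher, a share near the 5.42% of all genes tested (median 0.21, and 0.08 and 0.29 within slides), the collagen Col5a1 by 0.68 and the protease inhibitor Timp1 by 1.69. Timp1 stood at 2.83 within slide 1 and 0.55 within slide 2, where it did not pass, and the Col5a1 call was lost when any of 3 single arrays was left out.

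For 16 of the 219 genes the size of the shift differed between states by the model's interaction term, against 468 (2.2%) of all genes tested. Slc43a1, named above, was at 1.18, 1.75, 1.86 and 1.31 in fed WT, 5.77, 5.20, 5.41 and 4.93 in fasted WT, 0.54, 0.07, 0.15 and -0.04 in fed mFoxO-TKO and 0.83, 0.64, 1.78 and 1.26 in fasted mFoxO-TKO muscle. The genotypes were apart in each state, by 1.35 fed and 4.20 fasted, a difference of -2.85 (adjusted p = 0.000847). Car9, a carbonic anhydrase at the cell surface, was higher by 0.84 ± 0.18 fed and 3.20 ± 0.18 fasted. Its WT levels were -0.58, -0.94, -1.0 and -1.01 fed and -1.70, -1.26, -1.17 and -1.89 fasted, against -0.25, -0.06, -0.10 and 0.25 fed and 1.45, 1.76, 2.05 and 1.52 fasted in mFoxO-TKO muscle. Car9 thus lay lower in fasted than in fed WT arrays and higher in fasted than in fed knockout arrays. Mdga1, a cell adhesion protein, was higher by 1.09 fed and 3.09 fasted. Aqp4 (the water channel of fast fibres) and Lcn2 (a secreted iron-binding protein) had averaged differences of 2.30 and 2.29, with fasted differences of 3.83 and 3.71 and fed differences of 0.76 and 0.86 that did not pass.

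Many of the genes shifted by the knockout in both states also passed for fasting. The fasting effect averaged over genotypes passed for 125 of the 219 (57.1%), against 31.3% of all genes tested. Of the genes lower in knockout muscle, 51 rose and 23 fell on fasting, and of the genes higher in knockout muscle, 9 rose and 42 fell. Rises and falls were not counted apart over all genes tested, so the balance of these counts has no share to be read against. The fasting and the genotype effect were estimated from the same arrays, and no test of this overlap was made.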

How the data were processed

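Quadriceps RNA of 4 groups of 4 samples was read on 1-colour arrays. The authors deposited scanner files whose spot intensity was extracted with Agilent Feature Extraction 11.0.1.1 per the file headers, while the submitters' processing notes name version 9.5. The authors' deposited table of whole-number scores is the processed signal times 1 factor per array (75th percentile 100 on each array) and served as an alternative. The scanner's 0 or 1 marks for signal above background, saturation and uneven spots, per the file headers, were used as filters.

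The log2 of the deposited processed intensity minus its array's 75th percentile was the level used here. Uneven spots were left out, probes had to be well above background on all arrays of at least 1 group, and the brightest probe stood for a gene, which left 21281 genes. The groups were fitted with limma 3.58.1 in R 4.3.3 (contrasts for each feeding state, their mean and their difference, Benjamini-Hochberg over all genes) with Python 3.11.15 for the rest, and the fit was tested on simulated data. A gene passed in both states when the averaged, fed and fasted effects all passed with 1 sign. No depth exists for arrays, and 4 arrays per group limit the precision.

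Named genes were Foxo1, Foxo3 and Foxo4, the 12 largest rises and falls among genes passing in both states whose arrays did not overlap in each state, the 5 highest and 5 lowest that passed on average and by interaction, and up to 4 passing members of each list, with genes lacking an ordinary symbol passed over; 4 further genes that this rule names are not reported here, and other names were chosen after their values were seen. The members and lists were chosen with earlier results of these data known. Alternatives were scaling, background correction, dim-probe filters, probe choice, slide and replicate blocks, single slides, array weights, a stricter threshold and leaving out each array.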

Additional observations from a re-analysis of the deposited data

Results flagged for a closer look

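In groups of 4 arrays the gap between the extreme array and its nearest neighbour, over the range of the group, was compared with Dixon's 95% critical value. Of 336 groups of 4 arrays of the named genes 25 exceeded it, and chance gives about 1 in 20. In fed WT muscle replicate 4 was highest for Olfr437 (0.833), Chrna1 (0.922) and Sypl2 (0.903), and replicate 3 was highest for Depp1 (0.858). In fasted WT muscle replicate 1 was lowest for Tspan8 (0.848) and highest for Depp1 (0.898) and Cry2 (0.874), replicate 3 was lowest for Adad2 (0.869) and Psmd8 (0.889), and replicate 4 was lowest for Pik3ip1 (0.862). In fed mFoxO-TKO muscle replicate 1 was highest for Olfr996 (0.957) and Sesn1 (0.831) and lowest for Kcnab1 (0.861). Replicate 2 was highest for Slc23a3 (0.952) and lowest for Acvr2b (0.861), and replicate 4 was highest for Mdga1 (0.929) and lowest for Myh3 (0.873). In fasted mFoxO-TKO muscle replicate 1 was lowest for Olfr996 (0.842), Slc2a3 (0.889) and Gclm (0.859) and highest for Mdga1 (0.869) and Fdft1 (0.894). There, replicate 3 was lowest for Olfr437 (0.881), and replicate 4 was highest for Dnase1 (0.851) and lowest for Smox (0.891).

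For 22 of the 86 named genes the knockout effect differed between the feeding states by limma's interaction term, given here as the fasted minus the fed difference on the log2 scale. It was negative, so that the fasted value lay further below, for Depp1 (-3.75), Slc43a1 (-2.85), Chac1 (-2.80), Gadd45a (-2.46), Sesn1 (-2.25), Pfkfb3 (-2.06), Odc1 (-1.84), Foxo1 (-1.65), Gabarapl1 (-1.64), Ulk1 (-1.57), Fbxo30 (-1.48), Ctsl (-1.29), Npc1 (-1.23), Nfe2l2 (-1.10) and Sqstm1 (-0.74). It was positive for Aqp4 (3.08), Myod1 (3.02), Lcn2 (2.85), Car9 (2.35), Pnpla3 (2.22), Mdga1 (2.0) and Smad3 (1.48).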

How the results depend on the processing

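The 3 counts given below are genes passing on average, genes passing in both states and, among the latter, genes with a like shift, which were 2459, 219 and 200. Single slides with 2 arrays per group gave 972, 59 and 57 on slide 1 and 1083, 29 and 27 on slide 2, and an adjusted p under 0.01 gave 1290, 95 and 92. The last 2 counts were 128 and 113 with normexp, 123 and 117 with no filter on dim probes, 386 and 343 with slide as a block, and 508 and 395 with array weights. Leaving out single arrays gave 1998 to 2572, 121 to 240 and 114 to 217. The direction of Foxo3, which did not pass, reversed to 0.096 on slide 2 alone, with a range from -0.16 to 0.070 over single arrays left out. The other 85 named genes kept their direction wherever fitted, on arrays that had also served to choose most of them. Of the 86 named genes 45 kept their side of the threshold as well. Of 2703 alternative values for named genes 152 no longer passed; the cause was not tested. Leaving out blocks of shifted spots was chosen after seeing the data. Same-numbered samples correlated in their deviations between 0.064 and 0.366 (median 0.181), not all above 0.1, so the numbers were not taken as pairs. Other pairs on the same slide correlated between -0.025 and 0.290 (median 0.098), and pairs across slides between -0.354 and -0.036 (median -0.139). The deviations thus differed by slide, and the main fit had no slide block. Of 16 arrays 12 correlated best with their own number. In all 4 groups a number stands for 1 row of 1 slide, and shifted blocks of spots occurred on replicates 1 and 3 (row 1) and not on 2 and 4 (row 2), so a replicate block is also a block on array position. With a replicate block the counts were 3498, 322 and 290, and Mymk alone among the named genes lost its call. On arrays, probes near background limit what can be seen: fold changes of dim genes are bounds or shrink with background correction.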
